A study of Homo sapiens with 8 samples.

Results

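The baseline described here is the RNA of A549 cells that received a control oligonucleotide and no knockdown, 4 of the 8 libraries in the study. A549 is an established line from a human lung adenocarcinoma. LNA controls 1 and 2 were transfected with 25 pmol of a scramble LNA GapmeR, an antisense oligonucleotide with locked bases, and siRNA controls 2 and 3 with 40 pmol of a scramble siRNA. All 4 cultures were grown in DMEM with FBS and antibiotics, transfected with RNA-iMAX, and extracted as total RNA. The other 4 libraries, 2 with LY6K-AS and 2 with YWHAG knocked down, were not compared. The labels do not say that the 2 libraries of a control came from separate cultures, so the spread between them may be technical. The siRNA controls carry the numbers of their table columns, which differ from those in the labels. No control without transfection is among the samples analysed here.

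A549 cells are widely used as a model of the alveolar epithelium and carry loss of the kinase STK11 and of the NRF2 inhibitor KEAP1 and a deletion around CDKN2A. KEAP1 normally binds the transcription factor NRF2 and directs its destruction, so cells without working KEAP1 keep NRF2 and transcribe its antioxidant and detoxifying targets. Alveolar type II cells make surfactant and self-renew under the lineage factor NKX2-1, and lung adenocarcinomas that lose this factor can take up genes of gut and liver.

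Levels are RPKM, reads per kilobase of merged exon length and per 1e6 reads. Those of the LNA libraries were rescaled from genomic span, and whether their reads include introns is not given. The tables of the LNA and siRNA libraries were normalized separately, so no test was made between them, and rank within a library is the main scale. The reads behind the normalization came to 33.97 M and 30.55 M in LNA controls 1 and 2 and 34.48 M and 34.46 M in siRNA controls 2 and 3 (M, 1e6 reads). At that depth 3 reads, the limit that a count of 0 allows, correspond to 0.0870 to 0.0982 reads per 1e6 reads. Within a control the libraries were close. The log2(RPKM + 1) values of 11751 protein-coding genes differed with an SD of 0.08 between the LNA controls and 0.15 between the siRNA controls. On this scale, which shrinks differences at low levels, no gene differed 2-fold in either pair. In RPKM some did, such as TMEM160 at 1.97 and 4.51 RPKM in siRNA controls 2 and 3. Counts within a pair still varied more than sampling alone gives (chi-square per degree of freedom 3.39 and 12.3), so no library was a copy of another. Across the 2 kinds of control 15.0 to 19.5% of genes differed 2-fold on the log2(RPKM + 1) scale, depending on the pair of libraries. Each kind of control is therefore given beside the other throughout.

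Of 19635 nuclear protein-coding genes, 9775 (49.8%) had at least 1 RPKM in all 4 libraries. They were 93.0% of the 10507 genes at that level in both LNA controls and 96.8% of the 10101 in both siRNA controls. At the other end, 2798 genes (14.3%) had 0 reads in all 4 libraries. Only 165 genes reached 100 RPKM in all 4, and the top 20 genes of each library held 13.1 to 13.5% of its summed RPKM.

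The light chain of the iron store ferritin, FTL (ENSG00000087086.13, hg38 chromosome 19, 48965301 to 48966878), ranked first in every library. Its levels were 4074 and 4091 RPKM in the LNA controls and 7941 and 8441 RPKM in the siRNA controls. FTL has 16 processed pseudogenes, so reads may be shared with copies. Below it stood 2 enzymes that detoxify aldehydes and carbonyls. ALDH1A1 (ENSG00000165092.12, chromosome 9, 72900662 to 73080442), which oxidizes retinal and lipid aldehydes, was at 2701 and 2651 RPKM in the LNA controls and 2016 and 1910 RPKM in the siRNA controls, rank 3 in each library. AKR1B10 (ENSG00000198074.9, chromosome 7, 134527592 to 134541408), an aldo-keto reductase, was at 2130 and 2013 RPKM against 2123 and 2043 RPKM, with ranks between 2 and 5. The LNA and siRNA values of AKR1B10 overlapped.

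The rest of the 20 genes with the best mean rank were mostly cytoskeletal, glycolytic, ribosomal and chaperone genes. The actin-binding gene TMSB10, the actins ACTG1 and ACTB and the profilin PFN1 stood beside the IGF-binding protein IGFBP4, the glycolytic GAPDH and ENO1, the chaperones HSP90AB1 and HSP90AA1, and RPL8, RPS16 and RPS6 of the ribosome. NQO1, PGD and PRDX1, all NRF2 targets, were also among them, as was KRT81. KRT81, a hair keratin, ranked 5 and 4 in the LNA controls (2019 and 2052 RPKM) and 36 and 30 in the siRNA controls (394 and 451 RPKM). IGFBP4 also separated the controls, at 1772 and 1914 RPKM against 677 and 701 RPKM. Its log2 difference of 1.42 became 0.45, under 2-fold, once the trend on GC content described further on was removed.

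Genes of the NRF2 pathway were high as a group. All 38 listed genes had at least 1 RPKM in every library, 36 of them had at least 10 RPKM, and their median rank was 299 among 19635. The list sum was 11683 and 11589 RPKM in the LNA controls and 16704 and 16931 RPKM in the siRNA controls, with FTL the main part of the difference. NRF2 binds the antioxidant response element, whose core can be written TGACNNNGC. RefSeq promoters of 300 bases (250 before the start site, GRCh38.p14) were found for 26 of the 38 genes, and 7 of these (26.9%) held the core on either strand, against 13.3% of all 35116 promoters. The 4 whose sequence lies outside the GENCODE span of the gene are shown, as 30 bases on each side of the core, with the core in capitals and read along the strand of the gene. Where the core lies on the other strand the capitals are its reverse complement.
TXNRD1, chr12:104215650-104215718, plus strand: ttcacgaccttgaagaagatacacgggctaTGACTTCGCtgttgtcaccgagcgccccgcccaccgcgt
ME1, chr6:83431150-83431218, minus strand: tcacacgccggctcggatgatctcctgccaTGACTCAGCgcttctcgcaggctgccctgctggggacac
CBR1, chr21:36069835-36069903, plus strand: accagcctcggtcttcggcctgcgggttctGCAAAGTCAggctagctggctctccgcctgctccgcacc
CYP4F11, chr19:15934985-15935053, minus strand: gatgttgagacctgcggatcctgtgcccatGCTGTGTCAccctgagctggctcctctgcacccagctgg
The cores lie 99, 137, 159 and 156 bases before the RefSeq start sites of TXNRD1, ME1, CBR1 and CYP4F11, counted to the first base in capitals. A match of these letters is a description of the sequence and does not show that NRF2 is bound there.

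**Figure D1:**
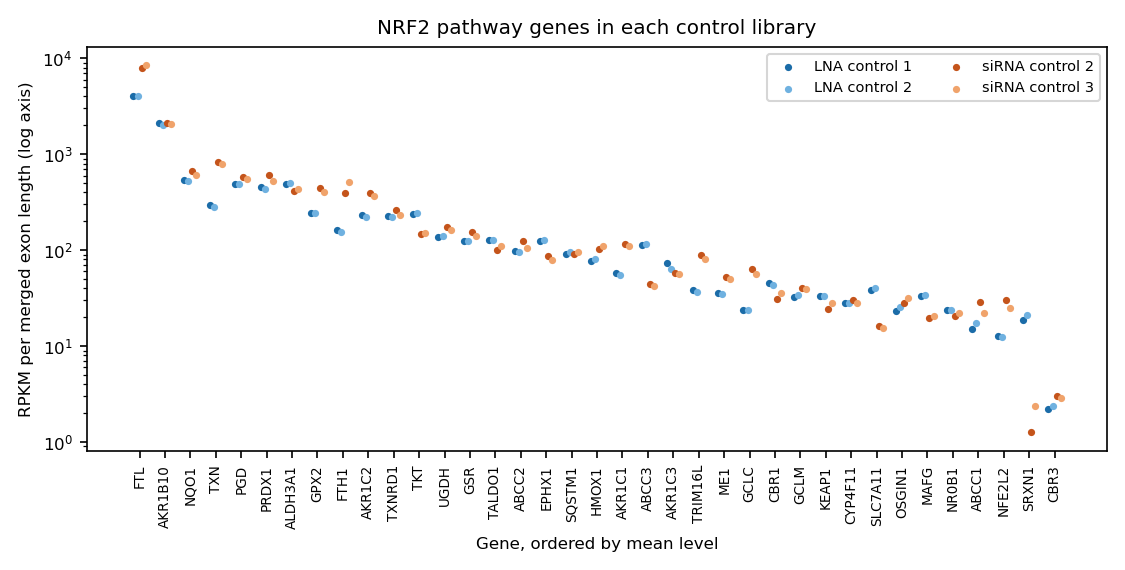
Level of NRF2 pathway genes in RPKM per merged exon length (log axis), 1 point per control library, with genes ordered by mean level. Most genes lie close together in all 4 libraries, while SRXN1 is low in the siRNA controls (1.27 and 2.38 RPKM) and CBR3 is low in all 4.

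The quinone reductase NQO1 (ENSG00000181019.12, chromosome 16, 69706996 to 69726951), the standard readout of NRF2 activity, was at 540 and 521 RPKM in the LNA controls and 665 and 612 RPKM in the siRNA controls. PGD, an enzyme of the pentose phosphate pathway that makes NADPH, was close to it. It was at 485 and 488 RPKM against 582 and 551 RPKM. PGD was thus higher in both siRNA controls, by less than 2-fold. Thioredoxin and glutathione genes formed a further tier. Thioredoxin itself (TXN) was at 295 and 282 RPKM against 831 and 788 RPKM, and the ferritin heavy chain FTH1 at 163 and 155 RPKM against 394 and 517 RPKM, with 7 and 22 pseudogenes that may share their reads. The peroxiredoxin PRDX1 lay between 430 and 605 RPKM, the thioredoxin reductase TXNRD1 between 224 and 260 RPKM, the gastrointestinal glutathione peroxidase GPX2 between 243 and 446 RPKM and the glutathione reductase GSR between 123 and 154 RPKM.

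The aldehyde dehydrogenase ALDH3A1 lay between 416 and 507 RPKM. The aldo-keto reductases AKR1C1, AKR1C2 and AKR1C3 lay between 55.6 and 115, 223 and 391, and 56.5 and 72.9 RPKM; they are near-identical copies, so the split of reads among them is uncertain. The remaining members that lay between 15.1 and 245 RPKM in every library were TKT, TALDO1, UGDH, ABCC1, ABCC2, ABCC3, EPHX1, SQSTM1, HMOX1, TRIM16L, ME1, CBR1, GCLC, GCLM, KEAP1, CYP4F11, SLC7A11, OSGIN1, MAFG and NR0B1. NFE2L2, which encodes NRF2 itself, was lower, at 12.8 and 12.3 RPKM in the LNA controls and 30.6 and 25.0 RPKM in the siRNA controls. KEAP1 was expressed at 33.0 and 33.3 RPKM against 24.6 and 28.2 RPKM. Its RNA level says nothing on whether its protein works. CBR3, a carbonyl reductase, lay between 2.19 and 3.05 RPKM and was the lowest member in the LNA controls. In the siRNA controls SRXN1 was lower, at 1.27 and 2.38 RPKM.

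Glucose metabolism was led by the lower part of glycolysis. Of 22 listed glycolytic genes, 19 had at least 1 RPKM in all 4 libraries and 15 at least 10 RPKM. GAPDH, ENO1 and the pyruvate kinase PKM lay between 358 and 987 RPKM, and both lactate dehydrogenase genes were high (LDHA between 241 and 372 RPKM, LDHB between 337 and 419 RPKM). Of 8 pentose phosphate genes, 7 were at 1 RPKM or more in every library, and TKTL1 had 0 reads. Of 6 gluconeogenesis genes only the mitochondrial PC and PCK2 were at that level, while FBP1 had 0 reads and the cytosolic PCK1 at most 0.20 RPKM. All 17 genes of the tricarboxylic acid cycle passed 1 RPKM, led by MDH2, IDH3B, FH and CS.

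The amino acid supply list had 14 of 15 members at 1 RPKM or more in every library. It was led by SLC7A5, the light chain of a neutral amino acid exchanger, at 759 and 859 RPKM in the LNA controls and 319 and 327 RPKM in the siRNA controls. Its partner SLC3A2 was at 225 and 238 RPKM against 84.3 and 87.3 RPKM, and the glutamine carrier SLC1A5 at 130 and 141 RPKM against 53.2 and 59.3 RPKM. All 3 carriers were higher in both LNA controls, as were 54.4% of all genes tested. GOT2 lay between 68.3 and 79.4 RPKM, below SLC1A5 in the LNA controls and above it in the siRNA controls. The liver glutaminase GLS2 had at most 7 reads in any library. In one-carbon metabolism 11 of 12 genes were expressed by the same criterion, led by PSAT1, MTHFD2, SHMT2 and TYMS. Lipid synthesis was expressed in 19 of 20 genes, led by the citrate lyase ACLY, the desaturase SCD, the synthase FASN and the regulator SREBF1.

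Among enzymes of aldehyde and xenobiotic metabolism, 13 of 21 were at 1 RPKM or more in all 4 libraries. After ALDH1A1 and ALDH3A1 the highest were CYP24A1, which degrades active vitamin D, between 304 and 334 RPKM, and the glutathione transferase GSTP1 (369 and 378 RPKM against 151 and 179 RPKM). The hepatic cytochromes CYP3A4, CYP2E1 and CYP2B6 had at most 11 reads in any library.

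The lineage of the cells was read from lists of marker genes. Alveolar type II markers were mostly missing. Only 3 of 14 had at least 1 RPKM in all 4 libraries: the lipid transporter ABCA3 (12.8, 13.9, 4.49 and 4.49 RPKM in LNA controls 1 and 2 and siRNA controls 2 and 3), the transcription factor ETV5 (7.07, 7.61, 9.77 and 9.22 RPKM) and the phospholipid acyltransferase LPCAT1 (2.76, 3.18, 6.18 and 6.09 RPKM). The surfactant protein genes SFTPC, SFTPB and SFTPA1 had 0 to 5 reads in any library, and SFTPD had 5 to 10. NKX2-1 (ENSG00000136352.17, chromosome 14, 36516392 to 36521149) had 2, 0, 0 and 1 reads. The summed level of the list was 20.4 to 25.5 RPKM, nearly all of it from the 3 genes named.

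**Figure D2:**
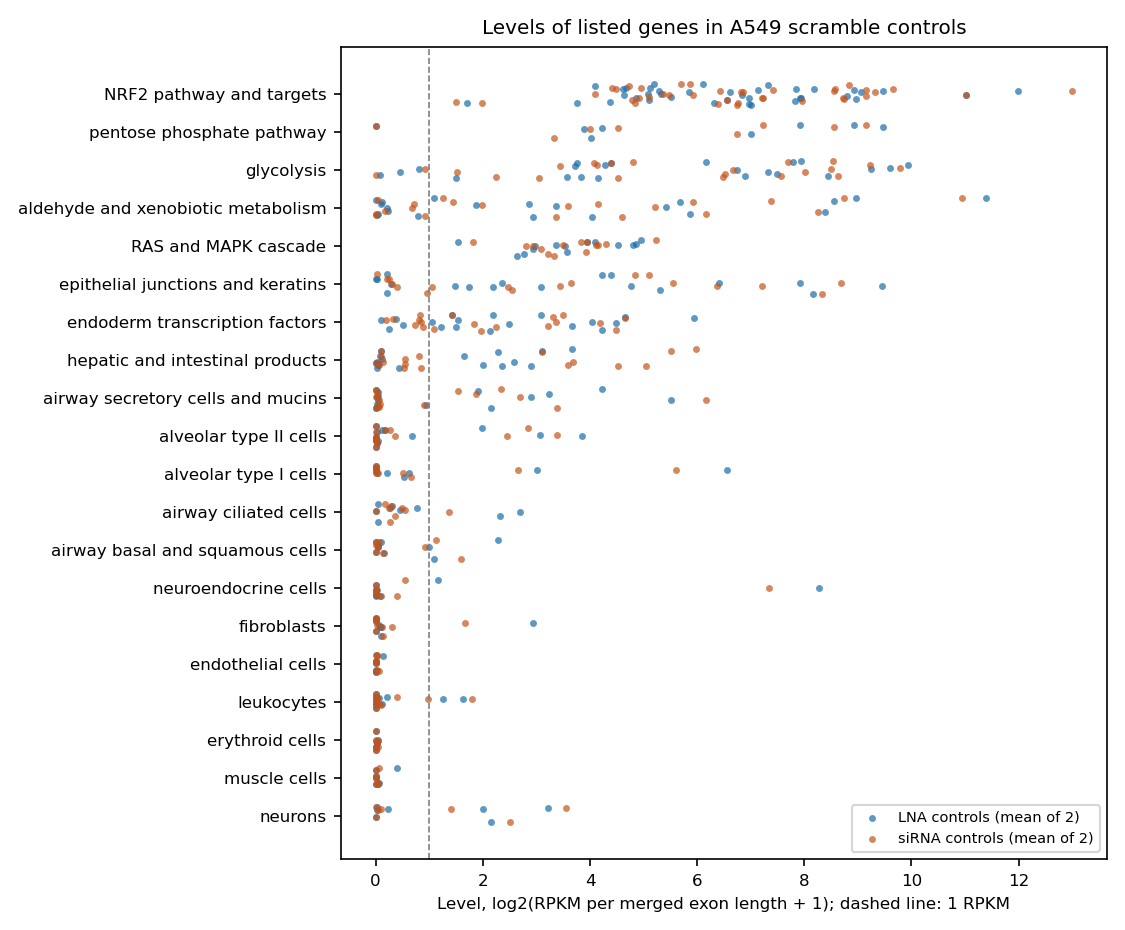
Level of each listed gene as log2(RPKM per merged exon length + 1), with 1 point per gene for the mean of the 2 LNA controls and 1 for the mean of the 2 siRNA controls, and the dashed line at 1 RPKM. NRF2, pentose phosphate and glycolysis genes lie to the right, and the endothelial, erythroid and muscle lists have no gene at 1 RPKM in all 4 libraries.

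Of 9 alveolar type I markers, the caveolin CAV1 (92.3, 94.8, 46.5 and 48.6 RPKM) and EMP2 (5.30 to 7.07 RPKM) were expressed by this criterion, and AGER, the defining marker, was at 0.40 to 0.64 RPKM. PDPN had 0 reads, and HOPX and AQP5 at most 2.

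Airway secretory genes gave a mixed picture, with 6 of 16 at 1 RPKM or more in every library. AGR2, a disulphide isomerase needed for mucin folding, was highest, at 46.5 and 42.9 RPKM in the LNA controls and 74.9 and 67.0 RPKM in the siRNA controls. The gel-forming mucins MUC5AC (17.4 and 18.0 RPKM against 4.01 and 4.15 RPKM) and MUC5B (6.31 and 6.57 RPKM against 5.5 and 5.5 RPKM), the membrane mucin MUC13 (3.47 and 3.48 RPKM against 9.73 and 9.06 RPKM), the goblet-cell factor SPDEF and the trefoil gene TFF1 were the others. The club-cell genes SCGB1A1 and SCGB3A1 had at most 1 read in any library.

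Transcription factors of the endoderm list were in part expressed, in contrast to NKX2-1. Of 19 listed, 11 had at least 1 RPKM in all 4 libraries. CEBPB was at 57.0 and 64.6 RPKM against 19.1 and 29.3 RPKM, the highest in every library except siRNA control 2, where KLF5 was at 20.4 RPKM. KLF5, ELF3 and FOXA2 lay between 7.62 and 25.7 RPKM. HNF4A (ENSG00000101076.16, chromosome 20, 44355700 to 44434596), a master factor of hepatocytes and enterocytes, was at 15.0 and 16.0 RPKM in the LNA controls and 9.49 and 9.14 RPKM in the siRNA controls. SOX9 and FOXA1 lay between 7.27 and 12.5 RPKM, and CEBPA and NR5A2 between 2.26 and 5.16 RPKM. GATA6, FOXA3, GATA4, SOX17, NR1H4 and HNF4G were below 1 RPKM in at least 1 library and none reached 2 RPKM. CDX2 was at most 0.31 RPKM and PDX1 at most 0.14 RPKM.

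Liver and gut products were present for 7 of 17 genes, and all 7 were higher in both siRNA controls than in both LNA controls, as were 35.4% of all genes tested. The urea-cycle enzyme CPS1 was at 11.3 and 11.9 RPKM against 67.2 and 56.2 RPKM. All 3 chains of fibrinogen were expressed: FGB at 7.87 and 7.31 RPKM against 46.4 and 43.5 RPKM, FGA at 6.78 and 6.17 RPKM against 33.7 and 29.9 RPKM, and FGG at 3.0 and 3.03 RPKM against 10.7 and 11.3 RPKM. APOH, C3 and RBP4 were the others. The list sum was 45.2 and 43.9 RPKM against 204 and 184 RPKM. Albumin (ALB), AFP, TTR and APOA1 lay at or under 0.12 RPKM, and APOB had 0 reads.

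Epithelial keratins were abundant, while several junction genes were low. KRT8 lay between 285 and 333 RPKM and KRT18 between 239 and 435 RPKM, though 50 and 65 processed pseudogenes share their sequences. KRT7, typical of lung adenocarcinoma, was at 703 and 703 RPKM against 143 and 151 RPKM. KRT20, typical of colon, had at most 13 reads. E-cadherin (CDH1) lay between 4.42 and 7.54 RPKM, and the splicing factors of epithelial cells, ESRP1 and ESRP2, had at most 30 reads in any library. Mesenchymal genes were expressed beside them, 9 of 13 at 1 RPKM or more in all 4 libraries. S100A4 (504 and 481 RPKM against 209 and 215 RPKM), the matrix protein TGFBI (152 to 225 RPKM) and vimentin (VIM, 86.2 to 110 RPKM) were among the highest. N-cadherin (CDH2) was at 12.4 and 12.4 RPKM against 7.30 and 6.39 RPKM, so its level exceeded that of E-cadherin in each library.

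Most markers of other cell types were near 0, with some exceptions. In bulk RNA, fewer cells of a type and less RNA per cell cannot be told apart. No gene of the endothelial (8), erythroid (7) or muscle (7) lists had 1 RPKM in all 4 libraries, and their summed levels were at most 0.20, 0.09 and 0.46 RPKM. In the leukocyte list only CD14 passed (1.94 to 2.83 RPKM), the leukocyte marker PTPRC had at most 1 read, and the list sum was 3.49 to 4.31 RPKM. In the fibroblast list only COL1A1 passed (6.34 and 6.90 RPKM against 2.08 and 2.26 RPKM). Its partner chain COL1A2 had 1 to 4 reads, and DCN and FAP had at most 1. The ciliated list had CCDC78 only, and the basal list S100A2 only, with KRT5 and KRT14 at 6 reads or fewer. The basal factors TP63 (0.85 to 1.11 RPKM) and SOX2 (0.98 to 2.29 RPKM) lay about the threshold, below 1 RPKM in at least 1 library. UCHL1, a neuronal and neuroendocrine ubiquitin hydrolase, was high at 314, 301, 163 and 160 RPKM, but the other 8 neuroendocrine markers were at most 1.34 RPKM, and CHGA was at most 0.33 RPKM. Of 7 neuronal genes, SNAP25 (8.24 to 11.6 RPKM), SYT1 (3.40 to 4.94 RPKM) and RBFOX3 (1.5 to 3.19 RPKM) were expressed. Of 16 cancer-testis genes, whose RNA is normally limited to germ cells, only PRAME passed, between 4.76 and 8.38 RPKM, and 14 had at most 3 reads in each library.

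The RAS and MAPK cascade was expressed whole. All 14 genes had at least 1 RPKM in every library, and none differed 2-fold without overlap between the 2 kinds of control. Over all genes tested 13.3% were higher in the LNA controls by that rule and 3.75% in the siRNA controls. With the trend on GC content removed, described further on, 1 of the 14 was counted as higher in the siRNA controls, against 4.51% of all genes. NRAS lay between 13.3 and 16.2 RPKM and HRAS between 6.66 and 7.76 RPKM. The phosphatase PTPN11 was highest of the list (29.7 to 38.6 RPKM), followed by ARAF, MAP2K2 and MAP2K1 (15.3 to 29.2 RPKM). SHOC2, MAPK3, NF1 and SOS1 lay between 5.75 and 10.7 RPKM, and BRAF was the lowest at 1.88 to 2.73 RPKM.

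Of 21 receptor tyrosine kinases, 11 were at 1 RPKM or more in all 4 libraries. The order of the leaders depended on the control. AXL was at 95.02 and 99.8 RPKM in the LNA controls and 31.6 and 32.1 RPKM in the siRNA controls, and the ephrin receptor EPHA2 at 87.1 and 95.5 RPKM against 22.0 and 23.2 RPKM. MET (ENSG00000105976.14, chromosome 7, 116672390 to 116798386), the receptor for hepatocyte growth factor, was at 49.9 and 47.5 RPKM against 67.0 and 56.9 RPKM. MET therefore stood behind AXL and EPHA2 in the LNA controls and ahead of both in the siRNA controls. IGF1R (25.6 to 30.4 RPKM), EGFR (35.4 and 36.8 RPKM against 19.8 and 16.9 RPKM), FGFR4, FGFR1 and ERBB2 followed, with NTRK3, DDR1 and FGFR3 the other 3 that passed. ERBB3 and INSR lay between 0.88 and 2.35 RPKM. FGFR2 was at most 1.11 RPKM, and RET, ROS1, KIT, ALK, ERBB4 and NTRK2 were at most 0.24 RPKM.

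Among 20 growth oncogenes 15 were expressed by the same criterion. Cyclin D1 (CCND1) lay between 74.7 and 87.9 RPKM, cyclin D3 (CCND3) between 54.0 and 68.4 RPKM and MYC between 49.7 and 58.5 RPKM, with similar values in both controls. Cyclin D2 (CCND2) had 0 or 1 read. Beta-catenin (CTNNB1) was at 97.2 and 97.2 RPKM against 46.1 and 41.3 RPKM. The survival genes BCL2L1 and MCL1 lay between 34.9 and 68.4 RPKM, while BCL2 was at most 0.35 RPKM. CDK4, AKT2, AKT1, CCNE1, YAP1, CDK6, MDM2, MDM4 and PIK3CA were expressed at 1.35 to 33.8 RPKM. TERT, the catalytic subunit of telomerase, was at 3.21 and 3.40 RPKM against 0.76 and 1.00 RPKM, and MYCL and MYCN were at most 0.37 RPKM.

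Of 24 tumour suppressors, 20 had at least 1 RPKM in every library, STK11 and KEAP1 among them. STK11 (ENSG00000118046.14, chromosome 19, 1177558 to 1228435) was at 10.6 and 11.7 RPKM against 3.39 and 4.04 RPKM. The level of its RNA does not show whether its protein is made. The cell-cycle inhibitor CDKN1A was at 59.7 and 59.0 RPKM against 33.7 and 34.3 RPKM. RBM10, BRCA1, ARID1A, CDKN1B, SMARCB1, NF2, SETD2, RB1, CDKN2C, SMARCA2, APC, RASSF1, ATM and BRCA2 lay between 1.55 and 29.3 RPKM. The chromatin remodeller SMARCA4 was at 2.47 and 2.52 RPKM against 1.24 and 1.19 RPKM, the lowest of the 20 by mean rank. FHIT was at most 0.28 RPKM.

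The other 3 suppressors that failed were neighbours on chromosome 9p21. CDKN2A (ENSG00000147889.16, chromosome 9, 21967753 to 21995301, minus strand), which encodes the cell-cycle inhibitors p16 and p14ARF, had 0 reads in all 4 libraries. A count of 0 allows at most 0.0201 to 0.0227 RPKM there. Its neighbour CDKN2B (22002903 to 22009363) had 0, 1, 0 and 0 reads, and the antisense gene CDKN2B-AS1 had 0. MTAP (21802543 to 21937651), the methylthioadenosine phosphorylase, had 14, 8, 4 and 10 reads, at most 0.03 RPKM. Genes on both sides gave reads. On the side of the telomere, IFNE had 79, 77, 42 and 59 reads and KLHL9 had 1718, 1439, 1712 and 1718 reads. Beyond CDKN2B, DMRTA1 had 68, 63, 108 and 92 reads, ELAVL2 had 1 to 3, and CAAP1, PLAA and IFT74 had 608 to 2667 reads. MLLT3, FOCAD and HACD4 were also read in all 4 libraries (133 to 2757 reads), as was TUSC1 (239, 203, 42 and 53 reads). The interferon genes IFNB1, IFNW1, IFNA21 and IFNA5 had 0 reads. IFNA1 is not given in reads, since its length could not be checked.

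**Figure D3:**
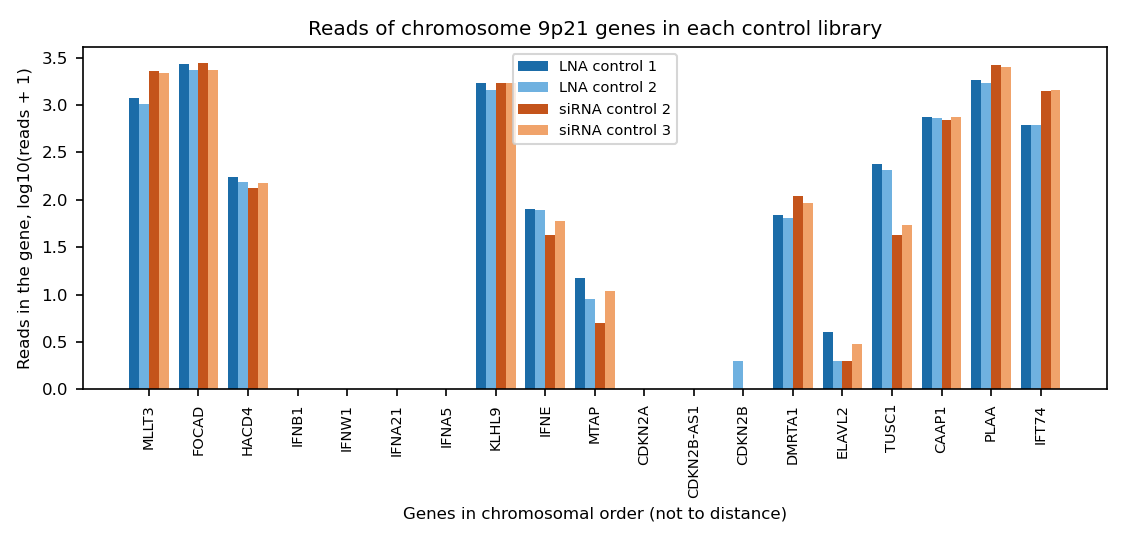
Reads in 19 genes of chromosome 9p21 as log10(reads + 1), in chromosomal order and not to distance, with 1 bar per control library. CDKN2A, CDKN2B-AS1 and CDKN2B had at most 1 read in any library. Bars are also missing at IFNB1, IFNW1, IFNA21 and IFNA5, and are low at MTAP (4 to 14 reads) and ELAVL2 (1 to 3 reads). Taller bars stand on both sides.

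Proliferation genes were high, with 22 of 23 at 10 RPKM or more in every library. PCNA lay between 208 and 231 RPKM and the topoisomerase TOP2A between 122 and 137 RPKM. CCNE2 was the exception, at 0.86 to 1.86 RPKM. Interferon-stimulated genes were low. Only 7 of 24 passed 1 RPKM in all 4 libraries, OAS3 among them (10.8 to 18.3 RPKM), and the classical markers MX1, IFI27 and IFI44L were at most 0.20 RPKM.

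The long noncoding RNAs with the best mean rank were LRRC75A-AS1 (70.2 to 72.8 RPKM), MALAT1 (43.7 to 63.4 RPKM), SNHG5, NORAD and FGD5-AS1. All 5 differed by less than 2-fold between the controls. The paraspeckle RNA NEAT1 was at 53.1 and 49.1 RPKM against 17.3 and 20.5 RPKM.

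The 2 kinds of control differed far more from each other than within themselves. A gene was counted where the means of log2(RPKM + 1) differed by at least 1, which is 2-fold, and both libraries of a control lay beyond both of the other. Of 11751 genes with at least 0.5 RPKM in at least 2 libraries, 1561 (13.3%) were higher in the LNA controls and 441 (3.75%) in the siRNA controls. The median difference over all of them was 0.16 in favour of the LNA controls. The oligonucleotide, the transfection and the table with its counting go together, so they cannot be told apart. With the median difference set to 0 the counts were 1127 and 643, and with each library rescaled to one sum over protein-coding genes 1994 and 960 (of 13352 genes), so the share of calls towards the LNA controls depended on the scaling.

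**Figure D4:**
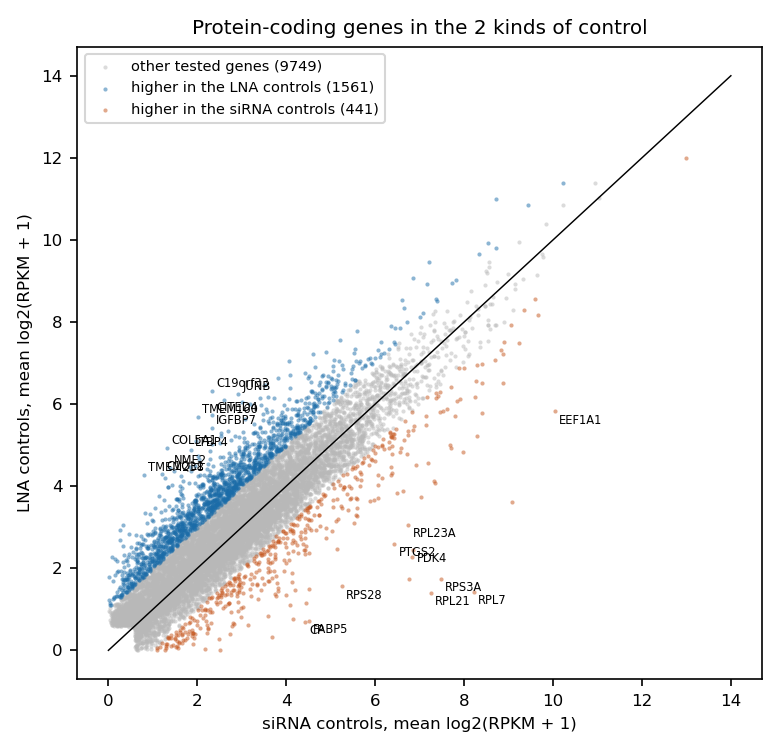
Mean log2(RPKM + 1) of the 2 siRNA controls (x axis) and of the 2 LNA controls (y axis) for 11751 nuclear protein-coding genes, with the line of equality, and names at the 10 genes per direction with the widest gap. The 1561 genes higher in the LNA controls form a broad band above the line, and RPL7, RPL21, RPS3A and EEF1A1 lie far below it.

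The 10 genes with the widest gap towards the LNA controls were C19orf33, COL5A1, CITED4, TMEM238, TMEM160, NME2, IGFBP7, JUNB, LTBP4 and C1QL1, with log2 differences of 3.04 to 3.99. COL5A1, a fibrillar collagen chain, was at 27.1 and 31.8 RPKM against 1.5 and 1.52 RPKM. IGFBP7, a secreted binding protein of the IGF family, was at 41.8 and 41.8 RPKM against 3.73 and 4.31 RPKM. The AP-1 subunit JUNB was at 71.3 and 78.2 RPKM against 5.37 and 8.02 RPKM. NME2 overlaps the readthrough gene NME1-NME2, so its reads are uncertain. Exons of C19orf33 (with AC011479.1), IGFBP7 (with IGFBP7-AS1 and POLR2B) and JUNB (with HOOK2) also overlap those of other genes. Strand use is not given, so their reads are uncertain too.

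The 10 in the other direction were RPL7, RPL21, RPS3A, PDK4, EEF1A1, PTGS2, RPL23A, FABP5, CP and RPS28, with log2 differences of −3.68 to −6.79. RPL7, a protein of the large ribosomal subunit, was at 1.87 and 1.53 RPKM in the LNA controls and 306 and 291 RPKM in the siRNA controls. The elongation factor EEF1A1 was at 55.7 and 55.6 RPKM against 1114 and 993 RPKM. RPL7, RPL21, RPS3A, EEF1A1, RPL23A and FABP5 have 13 to 90 processed pseudogenes named after them, and RPS28 has 3. PDK4, PTGS2 and CP have none. Exons of RPL21, RPS3A, EEF1A1, RPL23A, FABP5, RPS28 and CP (with HPS3) overlap those of other genes, so their reads are uncertain. PDK4, the kinase that shuts off pyruvate dehydrogenase, was at 4.50 and 4.42 RPKM against 118 and 111 RPKM. PTGS2, the inducible cyclooxygenase, was at 5.07 and 4.98 RPKM against 90.7 and 80.3 RPKM, and ceruloplasmin (CP) at 0.64 and 0.59 RPKM against 22.5 and 18.3 RPKM.

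Base composition and pseudogenes moved with these differences. In the bin of genes with the highest GC content, of 5 bins of equal size (over 58.4%), 45.6% were higher in the LNA controls and 0.43% in the siRNA controls, with a median difference of 0.94. In the lowest bin (under 40.9%) the shares were 1.15% and 5.66% and the median was −0.21. Across genes the rank correlation of the difference with GC content was 0.63 (11751 genes of the same 4 libraries, a description). Of 91 genes with 10 or more processed pseudogenes, 51.6% were higher in the siRNA controls, against 2.58% of 10453 genes with none. How much of the differences these 2 properties account for was not tested.

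**Figure D5:**
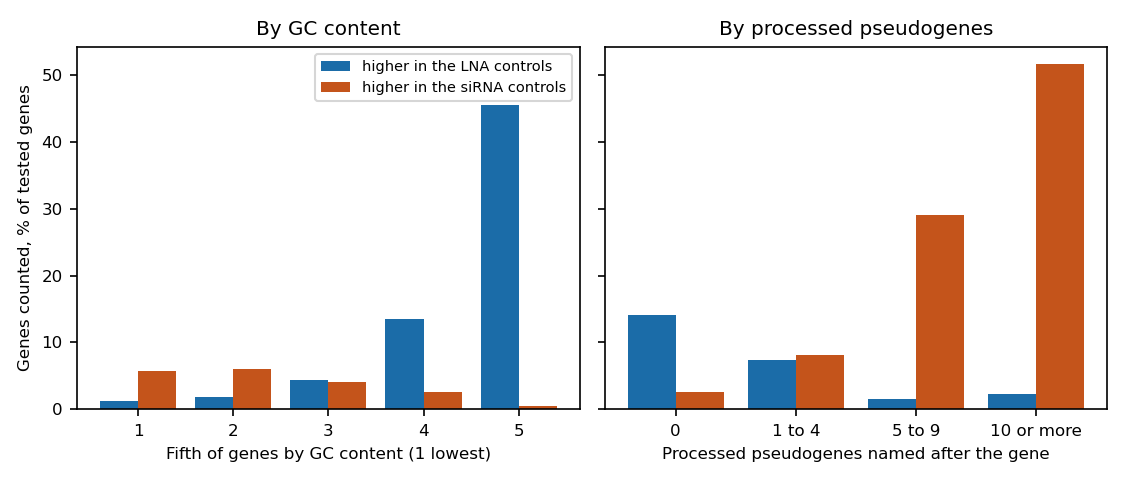
Share of tested protein-coding genes (y axis, %) that were at least 2-fold higher in the LNA controls or in the siRNA controls without overlap, in 5 equal bins of GC content (left) and by number of processed pseudogenes named after the gene (right). The LNA bars reach 45.6% in the highest GC bin, and the siRNA bars to 51.6% at 10 or more pseudogenes.

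With the trend on GC content taken out of the LNA values, 395 genes (3.36%) were higher in the LNA controls and 530 (4.51%) in the siRNA controls. The fitted line includes the overall difference between the controls (median 0.16), so its removal takes that out as well. Setting the median difference alone to 0 gave 1127 and 643. Of genes with no pseudogene counted with and without the trend, IGFBP7 (2.82 after removal) and COL5A1 (2.79) stayed well above in the LNA controls. So did the sulfiredoxin SRXN1 (2.54), CAV2 (2.10) and the TGF-beta receptor TGFBR1 (1.81). In the siRNA controls PDK4 (−4.18), PTGS2 (−3.66) and CP (−3.51) stayed furthest above. They were followed by the defensin DEFB1 (0.74 and 0.68 RPKM against 18.4 and 15.0 RPKM), the adhesion molecule CEACAM6 (16.0 and 16.0 RPKM against 174 and 148 RPKM), the siderophore-binding LCN2 (0.63 and 0.43 RPKM against 7.70 and 7.88 RPKM), and BMP4 (4.77 and 4.38 RPKM against 32.9 and 35.7 RPKM). This second selection was made after the values were seen, and exons of IGFBP7, SRXN1, CAV2, CP and CEACAM6 overlap those of other genes.

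Of the gene lists, liver and gut products differed most towards the siRNA controls. Of 9 genes tested, 6 were counted as higher there, CPS1, FGB, FGA, APOH, C3 and FGG, against 3.75% of all genes, and none was counted the other way. Their median difference was −1.58, and −1.65 with the GC trend removed. Inflammatory genes followed, with a median of −0.86 (−0.99 with the GC trend removed) over 13 genes. CXCL8, an attractant of neutrophils, was at 1.20 and 1.11 RPKM against 16.2 and 15.6 RPKM, and CXCL1 at 2.86 and 2.53 RPKM against 16.2 and 17.0 RPKM. CXCL2, TNFAIP3, CCL20 and ICAM1 were also higher in the siRNA controls. The cytokine LIF was higher in the LNA controls (45.2 and 45.6 RPKM against 14.1 and 15.2 RPKM). CXCL5, a chemokine outside the list, was also higher in the LNA controls. Its log2 difference was 1.86, and 2.06 with the GC trend removed, so chemokines did not all run towards the siRNA controls. Of the 13 genes, 6 were counted as higher in the siRNA controls and 1 in the LNA controls, against 3.75% and 13.3% of all genes. With the GC trend removed 6 genes of the list were counted as higher in the siRNA controls and none in the LNA controls. Over all genes the shares were then 4.51% and 3.36%.

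Hypoxia genes had a median of −0.56 over 14 genes, with EGLN3 (1.48 and 1.70 RPKM against 12.1 and 12.7 RPKM), the carbonic anhydrase CA9 (1.11 and 1.04 RPKM against 6.15 and 8.31 RPKM) and KDM3A higher in the siRNA controls and ANGPTL4 higher in the LNA controls. These were 3 and 1 of the 14 genes, against 3.75% and 13.3% of all genes. With the GC trend removed 2 genes of the list were counted as higher in the siRNA controls and none in the LNA controls. Over all genes the shares were then 4.51% and 3.36%. VEGFA overlapped between the controls (at most 3.38 RPKM in the LNA controls and 3.36 RPKM in the siRNA controls). In glycolysis the high-affinity glucose carrier SLC2A3 was at 1.71 and 1.91 RPKM against 21.6 and 22.2 RPKM, and the carrier SLC2A1 ran the other way at 67.9 and 72.8 RPKM against 26.9 and 27.2 RPKM.

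Sterol and fatty acid synthesis had the opposite sign, with a median of 0.72 over 20 genes (0.44 with the GC trend removed). ACLY, FASN, SREBF1, DHCR7, INSIG1 and MVD were counted as higher in the LNA controls and none in the siRNA controls, against 13.3% and 3.75% of all genes. With the GC trend removed 4 genes of the list were counted as higher in the LNA controls and none in the siRNA controls. Over all genes the shares were then 3.36% and 4.51%. FASN was at 97.7 and 110 RPKM against 25.8 and 29.2 RPKM, and SREBF1, the factor that drives the pathway, at 48.2 and 52.5 RPKM against 10.9 and 12.9 RPKM. Immediate early genes were split, with DUSP1, JUND, JUNB, JUN and IER3 higher in the LNA controls and EGR1 in the siRNA controls (0.24 and 0.23 RPKM against 1.57 and 2.15 RPKM). These were 5 and 1 of 17 genes, against 13.3% and 3.75% of all genes. With the GC trend removed 2 were counted in each direction, against 3.36% and 4.51% of all genes. The median went from 0.25 to 0.02. The NRF2 list had a median of −0.24, with ABCC3, SLC7A11 and SRXN1 higher in the LNA controls and FTL, TXN, FTH1, TRIM16L, GCLC and NFE2L2 in the siRNA controls. These were 3 and 6 of 38 genes, against 13.3% and 3.75% of all genes. With the GC trend removed the median was −0.43, and 2 and 9 genes were counted, against 3.36% and 4.51% of all genes. FTL, FTH1 and TXN have 16, 22 and 7 processed pseudogenes.

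Mitochondrially encoded RNA took a larger share of reads in the siRNA controls. It was 8.43% (95% Wilson interval 8.42 to 8.44%) and 6.43% (6.42 to 6.44%) in the LNA controls and 15.3% (15.2 to 15.3%) and 18.2% (18.2 to 18.3%) in the siRNA controls. The intervals take in counting error alone, and whether PCR copies of one molecule were removed is not given. Of 13 mitochondrial protein-coding genes, 7 were counted as higher in the siRNA controls and none in the LNA controls, with a median difference of −1.03. Over nuclear protein-coding genes the shares were 3.75% and 13.3%. The oxidase subunit MT-CO1 was at 8069 and 6585 RPKM against 16549 and 18801 RPKM, while cytochrome b (MT-CYB) overlapped, at 4550 and 3510 RPKM against 4325 and 5058 RPKM. The larger share leaves fewer reads for nuclear genes in the siRNA controls, and its part in the differences above was not tested. Of 22 mitochondrial transfer RNA genes, 10 were counted as higher in the siRNA controls and 3 in the LNA controls. Of the former, 5 were listed at 0 in both LNA controls. Of the latter, MT-TF was at 138 and 71.9 RPKM against 6.13 and 8.17 RPKM.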

How the data were processed

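RNA of the 4 control libraries was analysed from 2 tables that the authors deposited as RPKM, one per oligonucleotide type, normalized separately. Per the submitters' processing notes STAR, featureCounts, Subread and Picard were used with build hg38; versions, roles and strand use are not given in the sources used here. Of 66206 identifiers 57055 matched GENCODE 29, 52238 with the same version. Multiplying RPKM by genomic span (LNA table) or merged exon length (siRNA table) gave whole reads for 100% of same-version values (tolerance 0.05 reads). LNA values were therefore rescaled to merged exon length. For 1410 genes of another version the authors' length was recovered from the values, 945 were checked, and 2462 could not be (138 of them at 0.5 RPKM or more in 2 libraries). Differences are on log2(RPKM + 1), which understates low genes. No test was made across the tables. The 40 gene lists and the genes described were chosen with earlier results of these data known. Named genes were the 20 protein-coding and 5 long noncoding genes of best mean rank, up to 4 highest members per list, all members of the main lists (some are not reported here), and per direction the 10 genes with the widest gap. The Y chromosome was left out. Python 3.11.15, pandas 2.3.3 and statsmodels 0.14.6 (lowess, fraction 0.3) were used.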

Additional observations from a re-analysis of the deposited data

How the results depend on the processing

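No paired analysis was possible because no test was made and the siRNA columns carry other replicate numbers than the labels. Leaving out 1 library at a time gave 1445 to 1689 genes higher in the LNA controls, 416 to 486 higher in the siRNA controls and 9808 to 9876 detected genes. The main counts were 1561, 441 and 9775. Those of 1561 and 441 moved by less than 1.5 times with a pseudocount of 0.5 or a filter of 2 RPKM. So they did with genes of the same identifier version and with GENCODE 29 lengths throughout, and detection with 0.5 or 2 RPKM. Leaving out the filter gave 1561 and 441 again, which was nearly fixed in advance. A 2-fold difference of log2(RPKM + 1) needs about 1 RPKM in the higher control, and the filter asks for 0.5 RPKM. In the settings that follow a count moved by over 1.5 times. With a pseudocount of 0.1 the counts higher in the LNA and siRNA controls were 2437 and 769. Among genes that overlap no other gene, 3644 in all, they were 575 and 139, close to the shares over all genes (15.8% and 3.81%). Rescaling each library to one sum over protein-coding genes gave 960 genes higher in the siRNA controls. With the LNA values as deposited, per genomic span, 205 and 7177 genes were counted and 5508 detected, since the divisor then includes introns in the LNA table only. Chosen after the data were seen, the removal of the GC trend gave 395 genes higher in the LNA controls, and genes with no processed pseudogene gave 270 higher in the siRNA controls. None of 160 recomputed differences of the 20 genes with the widest gaps changed sign. These genes were chosen from the same values for their gaps, so an unchanged sign is no support for them. Of 37 list medians, 7 changed sign with the median difference set to 0 and 9 with the GC trend removed. Depth limits genes with few reads, and 23.9% of protein-coding genes had at most 3 reads in each library.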
